A study of Drosophila melanogaster with 35 samples.

Results

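Neurons pass signals by releasing small molecules that are made by dedicated enzymes and pumped into synaptic vesicles or back into the cell by dedicated transporters. The genes described here are the 10 named enzymes and transporters of the main transmitters of the fly: Gad1 and VGAT for GABA, VGlut for glutamate, ChAT and VAChT for acetylcholine, and ple, Ddc, Vmat, DAT and SerT for the monoamines. They were chosen by name and function from 17830 genes counted in fly heads, with earlier results of these data known. All 10 were among the 12093 genes with enough reads to test, at 80 to 23691 counts in a library.

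KDM5 is a chromatin protein and histone demethylase, which acts on methylated H3 tails at lysine 4, and changes in its human counterpart KDM5C cause Claes-Jensen syndrome, an intellectual disability. RNA was sequenced from heads of Drosophila melanogaster strains carrying A224T, D234G, L854F, R873W or Y874C, which are patient changes placed in fly KDM5, or JmjC, an engineered change that leaves the demethylase dead (n = 3 libraries each). The comparison strain carried WT KDM5 (n = 5). A second experiment covered neurons with elav;RPL3-FLAG;kdm5RNAI, a knockdown of kdm5, and neurons with elav;RPL3-FLAG, the controls, so both carried the tagged ribosomal protein. By their labels, knockdown and control each had Ribo-Seq libraries of an IP and of an Input (n = 3 each). Which of them gave the RNA values is not stated. elav is a gene of neurons, and the labels name neurons of heads as the cells. All flies were harvested 1 to 5 days after eclosion. The labels give neither the sex of the flies nor whether the libraries of a strain came from separate cultures or lines, so a p-value here covers only the variation among these libraries, part of which may be technical.

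In the fly brain acetylcholine is the main excitatory transmitter, GABA the main inhibitory one, and glutamate the transmitter of motor neurons and of some central neurons. Dopamine and serotonin come from amino acids through a hydroxylase and a shared decarboxylase, and tyrosine hydroxylase and the decarboxylase also work in the epidermis, where their products tan the cuticle. Each vesicular transporter marks the neurons that release its transmitter.

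Library totals were 16993554 to 32985353 counts, apart from D234G 1 with 3803077 and D234G 2 with 4960383. The head libraries fell into 2 sets by roX2, a dosage compensation RNA that is made in males. D234G, R873W and Y874C libraries with WT 1 and WT 2 held 19.5 to 40.4 CPM (set 1), and A224T, L854F and JmjC libraries with WT 3, WT 4 and WT 5 held 0.142 to 0.941 CPM (set 2). Folds are given against all 5 WT libraries and, where marked same-set, against the WT libraries of the same set. The WT libraries themselves differed by set in marker lists of other tissues. Fat body markers averaged 53914 CPM in WT 3 to 5 and 11772 CPM in WT 1 and 2. That list includes the yolk protein genes Yp1, Yp2 and Yp3, so its sum does not measure the amount of fat body alone. Antenna markers averaged 312 CPM in WT 3 to 5 and 30.7 CPM in WT 1 and 2. The part of the sex of the flies in these sums was not tested. The male reproductive list of 18 genes summed to 730.5 and 518.2 CPM in D234G 1 and D234G 3 and to 13.7 to 365.4 CPM in R873W, against 0.724 to 0.939 CPM in WT, where 6 of the 18 were at 0. In D234G 2 that sum was 0.818 CPM. Kdm5 itself was 0.25 higher on the log2 scale in R873W (edgeR adjusted p = 0.00223, same-set 0.29, 0.00342) and 0.19 higher in D234G (0.0125, same-set 0.23, 0.0162), and its folds in the other strains did not pass. Neuron markers were present in every library, which heads would give, but their presence cannot show that a library held heads alone. No pair of libraries of a group agreed within sampling noise.

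The values below are CPM, counts scaled to library size and then by TMM. Folds are log2 folds of the strain over WT with their standard error, and a gene was called at an edgeR adjusted p under 0.05 over all genes tested. The widest change was in JmjC heads, where 8 of the 10 genes fell, against 14.8% of all genes tested, and 9 fell same-set, against 14.2%. The members' median fold in JmjC was -0.54, beside 0.00 over all genes. In A224T heads 4 fell, against 7.57% of all genes, and 5 same-set, against 9.20%, with a member median of -0.25 beside 0.00. No member was called lower in the other strains.

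In D234G heads 5 of the 10 genes rose, against 25.3% of all genes, and 4 same-set, against 20.3%. Without the shallow D234G 1 and D234G 2 these counts were 2 and 1, and without D234G 1 and D234G 3, which held male transcripts, they were 3 and 3. Each of these fits leaves 1 D234G library, whose spread is assumed to be that of the other groups, so a lost call there says little. In R873W 3 rose, against 21.9% of all genes, and 1 same-set, against 18.9%. The number called in R873W lay between 1 and 6 when 1 library was left out, the 6 being without WT 1 and including SerT as lower. In Y874C 3 rose, against 9.27%, and 1 same-set, against 6.85%, and in L854F 2 rose, against 4.38%, and 1 same-set, against 5.63%. ple, which makes the precursor of dopamine, was called in D234G, R873W and Y874C.

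**Figure D1:**
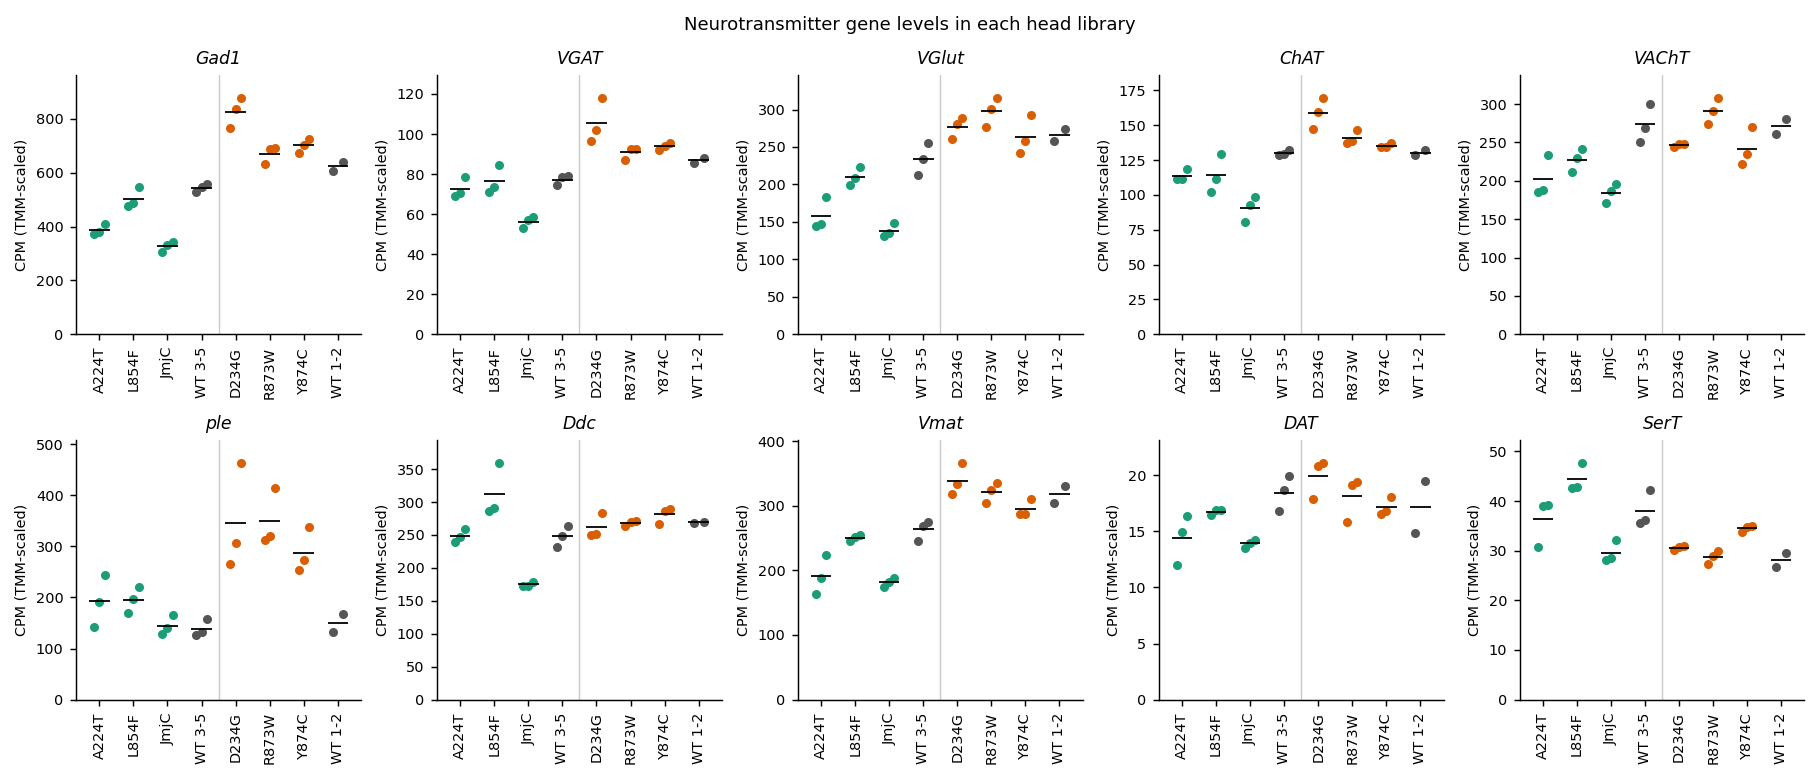
Level of each transmitter gene in CPM (y axis, from 0) in every head library, 1 point per library and a bar at the mean, with set 2 left of the grey line and set 1 right of it. JmjC libraries lie lowest for Gad1, VGAT and Ddc, and the ple points of D234G, R873W and Y874C lie at 252.8 to 462.4 CPM, above all WT points.

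Gad1, the enzyme that makes GABA from glutamate, had the widest span of strain means among the 10 genes, 2.52-fold, with ple next at 2.44-fold. That span ran from D234G in set 1 to JmjC in set 2. The WT libraries of those sets averaged 624 and 544 CPM (edgeR adjusted p = 0.0532). Within set 1, Gad1 means ran from 624 CPM in WT 1 and 2 to 826 CPM in D234G. There ple means ran from 150 CPM in WT 1 and 2 to 349 CPM in R873W. JmjC libraries held 332, 307 and 343 CPM and A224T libraries 372, 408 and 379.6 CPM, against 528, 547.5 and 556 CPM in WT 3 to 5 and 641 and 607 CPM in WT 1 and 2. Every JmjC and A224T library was below every WT library. Gad1 fell by 0.81 ± 0.072 in JmjC (edgeR adjusted p = 3.41e-07) and by 0.73 same-set (3.83e-07). In A224T it fell by 0.58 ± 0.072 (edgeR adjusted p = 2.47e-05), same-set by 0.49 (3.98e-05). L854F, the remaining strain of that set, held 475, 486 and 545 CPM and overlapped WT, with a fold of -0.20 that did not pass (edgeR adjusted p = 0.0985).

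The strains of the other set lay on the high side of WT for Gad1. D234G libraries held 835, 876.5 and 767 CPM, R873W libraries 691, 631 and 687 CPM, and Y874C libraries 675, 703 and 724 CPM, beside the 641 and 607 CPM of WT 1 and 2. D234G stood above every WT library and rose by 0.52 ± 0.069 (edgeR adjusted p = 1.48e-05), same-set by 0.40 (0.000729). With D234G 3 as its lone library, which leaves out both shallow ones, the same-set fold was 0.23 (edgeR adjusted p = 0.0938, with the spread taken from the other groups). Y874C rose by 0.28 (edgeR adjusted p = 0.00788) and R873W by 0.22 (0.0166) against all WT, while their same-set folds of 0.17 (0.152) and 0.10 (0.282) did not pass. The Y874C value did not pass without Y874C 3 (0.25, edgeR adjusted p = 0.0609), nor the R873W value without R873W 1 (0.20, 0.0667) or R873W 3 (0.18, 0.108).

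VGAT, which loads GABA into vesicles, kept the same order of strains as Gad1. JmjC libraries held 58.5, 53.1 and 57.1 CPM, against 74.3, 78.3 and 78.8 CPM in WT 3 to 5 and 88.0 and 85.7 CPM in WT 1 and 2. It fell by 0.53 ± 0.076 in JmjC (edgeR adjusted p = 4.7e-05), same-set by 0.46 (0.000198). A224T libraries, at 70.5, 78.6 and 69.3 CPM, overlapped WT, with a fold of -0.16 (edgeR adjusted p = 0.177). D234G libraries held 102, 118 and 96.6 CPM, all above WT, and VGAT rose there by 0.38 ± 0.075 (edgeR adjusted p = 0.000445). Its same-set rise of 0.28 (edgeR adjusted p = 0.0183) did not pass without D234G 1 (0.26, 0.0507), D234G 2 (0.13, 0.258), WT 1 (0.30, 0.0657) or WT 2 (0.21, 0.205), nor did the all-WT rise with D234G 3 alone (0.19, 0.183, with the spread of the other groups). The rise in Y874C of 0.21 (edgeR adjusted p = 0.0488) had a same-set fold of 0.11 (0.442), and leaving out any 1 Y874C library ended the call. L854F libraries (71.1 to 84.5 CPM) and R873W libraries (87.2 to 92.7 CPM) overlapped WT, with folds of -0.08 (edgeR adjusted p = 0.559) and 0.16 (0.0784).

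VGlut, the vesicular glutamate transporter, fell in JmjC about as far as Gad1. JmjC libraries held 148, 132 and 135 CPM, against 212, 234.2 and 256 CPM in WT 3 to 5 and 274 and 258 CPM in WT 1 and 2. The groups did not overlap, and VGlut fell by 0.84 ± 0.092 (edgeR adjusted p = 3.55e-06), same-set by 0.76 (1.04e-05). A224T libraries held 147, 183 and 144 CPM, again below every WT library, and VGlut fell there by 0.64 ± 0.092 (edgeR adjusted p = 0.000103), same-set by 0.57 (0.000292). In R873W it held 315, 300.4 and 277 CPM, above every WT library, a rise of 0.27 (edgeR adjusted p = 0.0196). The R873W fold was 0.16 same-set (edgeR adjusted p = 0.23), and the rise did not pass without R873W 1 (0.24, 0.0884) or R873W 2 (0.27, 0.0568). VGlut was not called in D234G (0.16, edgeR adjusted p = 0.149), Y874C (0.10, 0.502) or L854F (-0.23, 0.131), whose libraries overlapped WT.

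Acetylcholine genes share 1 locus: ChAT, the synthesis enzyme (3R 18705501 to 18732344), and VAChT, the vesicular transporter (3R 18705501 to 18718916), have the same start, and the labels do not say how the authors counted reads of overlapping genes. Their values are therefore uncertain as separate measures. ChAT held 98.8, 80.8 and 93.1 CPM in JmjC, against 128 to 132.5 CPM in the 5 WT libraries, and fell by 0.52 ± 0.072 (edgeR adjusted p = 3.32e-05), same-set also by 0.52 (9.17e-05). VAChT held 196, 172 and 186 CPM in JmjC, against 251 to 300.4 CPM in WT, and fell by 0.56 ± 0.084 (edgeR adjusted p = 7.04e-05), same-set by 0.57 (0.00017). Neither gene's JmjC libraries reached those of WT. L854F libraries held 211, 229 and 241 CPM of VAChT, also under WT, with a fold of -0.26 that did not pass (edgeR adjusted p = 0.0608).

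In A224T the pair differed in their calls, although the difference between the genes was not tested. VAChT, at 188, 234.2 and 186 CPM, fell by 0.43 ± 0.084 (edgeR adjusted p = 0.00195), same-set also by 0.43 (0.00293). ChAT, at 111.5, 119 and 112 CPM, lay below every WT library, with a fold of -0.19 that did not pass (edgeR adjusted p = 0.0759). In D234G it was ChAT that was called, at 169.5, 159.6 and 147 CPM, a rise of 0.28 ± 0.071 (edgeR adjusted p = 0.003), same-set 0.28 (0.021). The all-WT call was lost without D234G 1 (0.20, edgeR adjusted p = 0.0548), and the same-set call without D234G 1 (0.20, 0.139), D234G 2 (0.21, 0.104), WT 1 (0.30, 0.0734) or WT 2 (0.21, 0.211). VAChT in D234G had a fold of -0.14 (edgeR adjusted p = 0.176), and its 244, 248.1 and 248.1 CPM lay under every WT library. ChAT folds of 0.12 in R873W (edgeR adjusted p = 0.192), 0.06 in Y874C (0.628) and -0.19 in L854F (0.117) did not pass, nor did VAChT folds of 0.09 in R873W (0.369) and -0.17 in Y874C (0.163).

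ple encodes tyrosine hydroxylase, the first and limiting step of dopamine synthesis, and it departed from the other 9 genes. R873W libraries held 415, 312 and 320.2 CPM, D234G libraries 266, 462 and 307 CPM, and Y874C libraries 338, 253 and 273 CPM. WT 1 and 2 held 167 and 132 CPM, and WT 3 to 5 held 132, 126 and 158 CPM. All 9 libraries of these strains exceeded all 5 WT libraries. ple rose by 1.29 ± 0.18 in R873W (edgeR adjusted p = 1.93e-05, same-set 1.22, 0.00056), by 1.27 ± 0.18 in D234G (1.97e-05, same-set 1.21, 0.00101) and by 1.01 ± 0.18 in Y874C (0.000579, same-set 0.94, 0.00979). Without WT 2 the same-set value of Y874C was 0.78 (edgeR adjusted p = 0.164), and with only the compared groups in the fit that of D234G was 1.20 (0.0509). The 3 strains did not differ among themselves in ple by edgeR's F-test (adjusted p = 0.412).

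Markers of cuticle, muscle and male tissue were also high in some of those libraries. The cuticle epidermis list of 6 genes summed to 169.5 to 190.1 CPM in D234G, 94.4 to 151.6 CPM in R873W and 92.7 to 112.9 CPM in Y874C, against 71.0 to 80.7 CPM in WT 1 and 2 and 45.6 to 47.9 CPM in WT 3 to 5. Of 5 cuticle genes tested, 4 rose in D234G, 2 in R873W and 3 in Y874C, same-set 3, 1 and 0. Edg84A, of this list, was at 0 in D234G. The muscle list of 6 genes summed to 9014 to 9777 CPM in D234G, 7658 to 9126 CPM in R873W and 6608 to 8363 CPM in Y874C, against 4882 to 5613 CPM in WT 1 and 2 and 3654 to 4355 CPM in WT 3 to 5. Of its genes 5 rose in D234G, 4 in R873W and 2 in Y874C, same-set 4, 3 and 3, and none fell. Over all genes 25.3%, 21.9% and 9.27% rose in these strains, same-set 20.3%, 18.9% and 6.85%. The part of either list in the ple values was not tested. The highest ple values of D234G and R873W were in D234G 2 and R873W 1, which held the lowest male reproductive sums of their strains, 0.818 and 13.7 CPM. D234G 2 and R873W 1 also held the highest cuticle sums of their strains, 190.1 and 151.6 CPM. Y874C 1, with the highest ple value of its strain, held the lowest cuticle sum there, 92.7 CPM. The part of male tissue in the ple values was not tested either.

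Within set 2 ple was not called, though all L854F libraries lay above WT. A224T libraries held 191, 245 and 142 CPM and L854F libraries 221, 197 and 170.2 CPM, with folds of 0.43 ± 0.18 (edgeR adjusted p = 0.116, same-set 0.47, 0.115) and 0.45 ± 0.18 (0.132, same-set 0.50, 0.126). JmjC libraries held 127.5, 139.5 and 165 CPM, inside the WT range. The JmjC fold was 0.01 with a 95% interval of -0.37 to 0.38, which leaves room for a change of that size either way.

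Ddc, the decarboxylase that completes both dopamine and serotonin, fell in JmjC. JmjC libraries held 179, 173 and 173 CPM, against 249, 264 and 232 CPM in WT 3 to 5 and 270.4 and 267.5 CPM in WT 1 and 2. The fall was 0.55 ± 0.072 (edgeR adjusted p = 1.87e-05), same-set 0.51 (6.77e-05), with no overlap. L854F went the other way, at 290.3, 287 and 359 CPM, a rise of 0.28 ± 0.070 (edgeR adjusted p = 0.0164), same-set 0.33 (0.00666). Without L854F 3 the rise was 0.15 (edgeR adjusted p = 0.213), same-set 0.20 (0.0585), and with only the compared groups in the fit it was 0.28 (0.156). In the remaining strains Ddc folds lay between -0.05 and 0.13, none called.

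Vmat, which loads dopamine, serotonin and other monoamines into vesicles, fell in the same strains as VGlut. JmjC libraries held 188, 182 and 173.5 CPM and A224T libraries 188.5, 223.5 and 163 CPM, against 246, 269 and 275 CPM in WT 3 to 5 and 331 and 304 CPM in WT 1 and 2. No library of either strain reached WT. Vmat fell by 0.65 ± 0.094 in JmjC (edgeR adjusted p = 4.76e-05, same-set by 0.54, 0.00015) and by 0.57 ± 0.093 in A224T (0.00038, same-set by 0.46, 0.000995). In D234G it held 333, 365 and 318 CPM, partly inside the WT range, a rise of 0.25 (edgeR adjusted p = 0.0329) that was 0.09 same-set (0.515) and did not pass without D234G 1, D234G 2, or any of WT 2 to WT 5. Vmat folds of 0.17 in R873W (edgeR adjusted p = 0.131), 0.05 in Y874C (0.773) and -0.18 in L854F (0.254) did not pass.

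DAT, the dopamine reuptake transporter, was the lowest in counts. JmjC libraries held 13.96, 14.3 and 13.5 CPM, just under the lowest WT library, against 14.8 to 19.9 CPM in the 5 WT libraries. It fell by 0.37 ± 0.11 in JmjC (edgeR adjusted p = 0.0144, same-set by 0.41, 0.0133). The all-WT call was lost without any 1 JmjC library (edgeR adjusted p = 0.057 to 0.0774), and the same-set call without JmjC 1, JmjC 3 or WT 4 (0.0526 to 0.0677). A224T libraries held 12.0, 16.4 and 14.9 CPM, with a fold of -0.31 (edgeR adjusted p = 0.0518). The same-set fall of 0.36 (edgeR adjusted p = 0.0388) was lost without A224T 1, A224T 3, WT 4 or WT 5. With library size alone as the scale, the JmjC fold was -0.23 (edgeR adjusted p = 0.106). DAT folds in D234G (0.14), R873W (0.01), Y874C (-0.07) and L854F (-0.10) were not called, at edgeR adjusted p of 0.441 to 0.923.

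SerT, the serotonin reuptake transporter, divided the WT libraries themselves. WT 3 to 5 held 35.6, 36.2 and 42.3 CPM, against 29.6 and 26.7 CPM in WT 1 and 2, a difference of 0.43 ± 0.10 between libraries of 1 genotype (edgeR adjusted p = 0.00319). JmjC libraries, at 32.1, 28.5 and 28.2 CPM, lay below all WT libraries of their set and fell same-set by 0.36 ± 0.089 (edgeR adjusted p = 0.0052). Against all WT the JmjC fold was -0.20 (edgeR adjusted p = 0.197), and with library size alone as the scale the same-set fold was -0.20 (0.0969). L854F libraries held 42.8, 42.7 and 47.6 CPM and rose by 0.38 against all WT (edgeR adjusted p = 0.0368). The same-set fold was 0.22 (edgeR adjusted p = 0.118), and the rise was lost without any 1 L854F library, WT 1 or WT 2. R873W libraries held 27.4, 30.0 and 28.9 CPM, with a fold of -0.24 (edgeR adjusted p = 0.0841) that passed without WT 1 (-0.29, 0.0428) or WT 2 (-0.34, 0.00971) and was 0.03 same-set (0.832). Y874C libraries, at 34.7, 33.8 and 34.9 CPM, lay above WT 1 and 2, with a fold of 0.02 (edgeR adjusted p = 0.945) that was 0.29 same-set (0.0599). SerT did not pass in D234G (-0.15, edgeR adjusted p = 0.303) or A224T (0.09, 0.628). Vmat was the only other gene of the 10 called between the WT sets, 0.27 lower in WT 3 to 5 (edgeR adjusted p = 0.041), and that call was lost without any of WT 1 to WT 4. Leaving out WT 2 also ended the SerT call (0.35, edgeR adjusted p = 0.0664). So 2 of 10 were called between WT libraries, where 27.6% of all genes were.

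**Figure D2:**
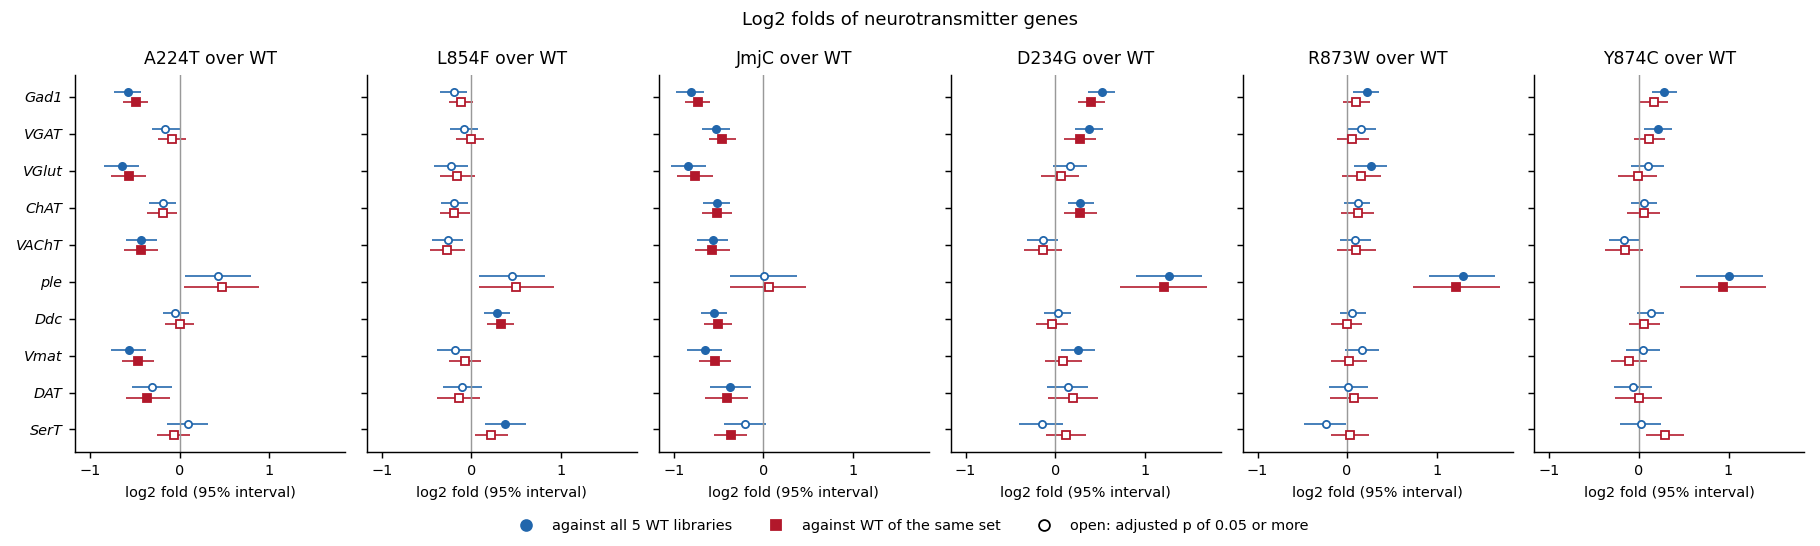
Log2 fold of each strain over WT (x axis) for the 10 genes, against all 5 WT libraries (blue circles) and against the WT libraries of the same set (red squares), with 95% intervals. Filled symbols passed an edgeR adjusted p under 0.05: 8 and 9 of 10 fell in JmjC, and ple is the far-right point in D234G, R873W and Y874C.

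The strains of a set can be compared without any WT library. Among A224T, L854F and JmjC, edgeR's F-test called 7 of the 10 genes, where 18.1% of all genes were called: Gad1, VGAT, VGlut, ChAT, Ddc, Vmat and SerT. Ddc had the smallest adjusted p (3.95e-06), with means of 248.5 ± 10.3 CPM in A224T, 312 ± 40.5 CPM in L854F and 175 ± 3.38 CPM in JmjC (SD, n = 3). VAChT (edgeR adjusted p = 0.0693), ple (0.22) and DAT (0.226) did not pass. The ChAT call was lost without JmjC 2 (0.126) and with library size alone (0.075), and leaving out 1 library gave 6 to 8 called genes. Among D234G, R873W and Y874C, 2 of 10 were called, where 45.6% of all genes were. Gad1 (edgeR adjusted p = 0.00855) averaged 826 ± 55.1 CPM in D234G, 669.9 ± 33.4 CPM in R873W and 701 ± 24.9 CPM in Y874C (SD, n = 3), and the call was lost without D234G 1 (0.0524) or D234G 2 (0.126). VAChT (edgeR adjusted p = 0.039) was highest in R873W, at 291 ± 16.6 CPM, and its call was lost without any 1 of 6 libraries of these strains (edgeR adjusted p = 0.062 to 0.153) and held without D234G 2, R873W 3 or Y874C 1.

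Ordered by strain mean, JmjC was lowest for 8 of the 10 genes and A224T second lowest for the same 8. WT was averaged over both sets here, so a rank between strains of different sets cannot be told from a set difference. For Gad1, VGAT, VGlut, ChAT and Vmat, all strains of the high roX2 set ranked above WT and all others below. WT libraries of the low roX2 set lay wholly below the other WT libraries for Gad1, VGAT, VGlut, Ddc and Vmat. For SerT they lay wholly above, and for the remaining genes they overlapped. For Gad1 the order was D234G, Y874C, R873W, WT, L854F, A224T and JmjC, and only D234G from Y874C, L854F from A224T, and A224T from JmjC had libraries that did not overlap with their neighbour. VGAT kept that order, with gaps below D234G and above JmjC. For ple the order was R873W, D234G, Y874C, L854F, A224T, JmjC and WT, with a gap between Y874C and L854F alone. For Ddc the gap was between A224T and JmjC. VGlut, Vmat, DAT and SerT each had 1 gap, between L854F and A224T.

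Broad neuronal genes also fell in JmjC, and fewer of them in A224T, while in the other strains their calls and those of the transmitter genes differed. The summed level of 9 neuron markers was 5810 to 6549 CPM in JmjC and 6409 to 7733 CPM in A224T, against 7208 to 8319 CPM in WT. In JmjC 6 of the 9 fell and none rose, where 14.8% of all genes fell, and same-set 5 fell, where 14.2% did. The log2 ratio of mean sums over WT was -0.339 in JmjC. In A224T 2 fell, where 7.57% of all genes did, and same-set 1, where 9.20% did, with a ratio of -0.178. R873W libraries held 9904 to 11121 CPM, with a ratio of 0.389. There 5 of 9 rose, where 21.9% of all genes did, and same-set 3, where 18.9% did. D234G libraries held 8259 to 9084 CPM, with 2 of 9 rising, where 25.3% of all genes did, and same-set 0, where 20.3% did. The transmitter genes' median fold was 0.14 in R873W and 0.21 in D234G, same-set 0.09 and 0.16. Y874C libraries held 7153 to 9741 CPM with no marker called, same-set 1 fell, and L854F libraries 7381 to 8425 CPM with none called in either comparison. None of the 9 markers was at 0 in any strain. In whole heads fewer neurons and less RNA per neuron cannot be told apart.

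Markers of other cell types moved in the same strains. In JmjC 3 of 7 photoreceptor markers and 4 of 6 muscle markers fell, where 14.8% of all genes did. There 2 of 4 hemocyte markers rose, where 12.1% of all genes did. Same-set, 3 photoreceptor, 1 muscle, 3 fat body and 3 antenna markers fell in JmjC, where 14.2% of all genes did. Also same-set, 2 hemocyte markers and 1 fat body marker rose, where 11.4% of all genes did. The JmjC sums were 45414 to 47638 CPM for photoreceptors and 3183 to 3496 CPM for muscle, against 47164 to 50637 and 3654 to 4355 CPM in WT 3 to 5. In A224T 4 of 7 photoreceptor markers fell, where 7.57% of all genes did, and same-set 3, where 9.20% did. No muscle, fat body, antenna or hemocyte marker was called in A224T. Of 5 cuticle genes tested, 1 rose and 2 fell in JmjC, and same-set 2 rose and 1 fell. In A224T none was called against all WT. Same-set 2 rose and 1 fell there, where 8.46% of all genes rose and 9.20% fell. Glia markers were split, with 1 up and 1 down in each of A224T and JmjC against all WT. The part of these lists in the transmitter gene values was not tested.

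Scaling every library to these 9 markers instead of to TMM asks how the transmitter genes stood relative to them, and it moved the median of all genes, by 0.37 in JmjC and 0.22 in A224T and by -0.37 in R873W. On this scale 3 genes still fell in JmjC: Gad1 by 0.43, VGlut by 0.45 and Vmat by 0.26. DAT turned to 0.01, while ple rose by 0.39. Same-set, Gad1 (-0.44), VGlut (-0.46), VAChT (-0.27) and Vmat (-0.24) fell in JmjC. In A224T Gad1 fell by 0.35, VGlut by 0.42 and Vmat by 0.35, VAChT did not pass (-0.21, edgeR adjusted p = 0.0777), and ple rose by 0.64. Same-set, VAChT did pass in A224T (-0.29, edgeR adjusted p = 0.0101), with Gad1 at -0.36, VGlut at -0.43, Vmat at -0.33 and ple at 0.60. ple also kept its rise in D234G (1.08), Y874C (0.99) and R873W (0.92), while Gad1 (-0.14) and VGlut (-0.08) in R873W changed sign and were not called. VAChT (-0.27), Ddc (-0.30), DAT (-0.35) and SerT (-0.61) were called lower in R873W on this scale (edgeR adjusted p = 0.00737, 0.0273, 0.0375 and 0.00275), and VAChT in D234G (-0.33, 0.00254). None of these 4 was called in R873W same-set, nor VAChT in D234G (-0.19, edgeR adjusted p = 0.0983).

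**Figure D3:**
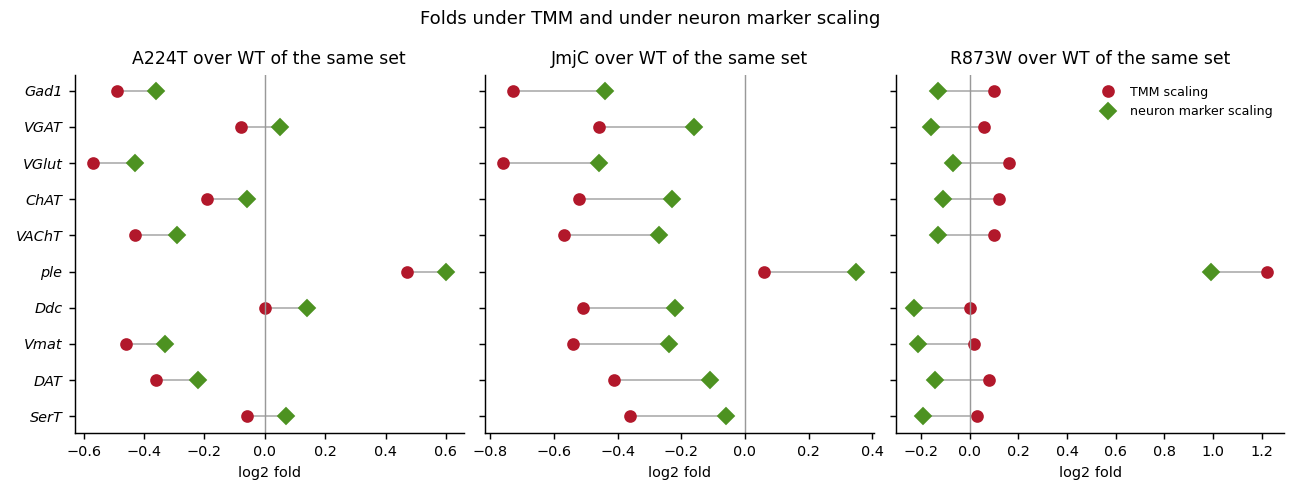
Log2 fold over WT of the same set (x axis) under TMM scaling (red circles) and under scaling to 9 neuron markers (green diamonds) in A224T, JmjC and R873W heads. In JmjC the markers' scale brings SerT to -0.06 and DAT to -0.11, while Gad1 and VGlut stay at -0.44 and -0.46.

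Across the 23 libraries, after each set's mean was taken out, the members did not all move alike. Over these libraries, which share strains and the neuron content described above, Pearson's r was 0.92 for VGlut with Vmat, 0.91 for VGlut with VAChT and 0.88 for Gad1 with VGAT. It was 0.61 for ChAT with VAChT, although they share a locus. For ple the highest r with any other member was 0.41, with VGAT. Over 8218 genes the pattern most like Gad1 was that of CG10804 (r = 0.96), and for VGlut that of CG34370 (0.94), Gfrl (0.93) and Ktl (0.93). DIP-eta (0.89), VGAT (0.88) and DIP-zeta (0.86) came closest to ChAT. side-II (0.93) came closest to Ddc, and rdhB (0.88) to SerT, with Pgant2 second for both (0.89 and 0.87).

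Other genes of transmitter metabolism were counted from a list of 23, of which 22 were tested. Pu, GTP cyclohydrolase, makes the cofactor that tyrosine hydroxylase needs, and it was called higher in all 6 strains against all WT. It held 240 to 292 CPM in the libraries of A224T, JmjC and D234G and 181 to 248 CPM in those of L854F, R873W and Y874C, against 147 to 172 CPM in the 5 WT libraries. No library of any strain overlapped WT. The rises were 0.79 in D234G (edgeR adjusted p = 1.31e-06), 0.70 in A224T (8.86e-06), 0.66 in JmjC (8.43e-06), 0.43 in R873W (0.000331), 0.30 in L854F (0.0231) and 0.30 in Y874C (0.0126). These comparisons share their WT libraries. Same-set, Y874C did not pass (0.23, edgeR adjusted p = 0.136).

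In JmjC the list had 2 genes that rose and 8 that fell, where 12.1% of all genes rose and 14.8% fell, and same-set 2 and 10, where 11.4% rose and 14.2% fell. Hn, phenylalanine hydroxylase, which makes tyrosine, rose by 0.99 ± 0.13 with Pu (edgeR adjusted p = 1.9e-05), same-set by 0.82. Tbh, which makes octopamine, fell to 27.1, 25.1 and 29.6 CPM, against 37.9 to 57.2 CPM in WT, by 0.83 ± 0.099 (edgeR adjusted p = 7.87e-06), same-set by 0.67. In A224T 2 rose and 5 fell, where 7.19% of all genes rose and 7.57% fell, and same-set 3 rose and 6 fell, where 8.46% rose and 9.20% fell. Hn rose there by 0.70, same-set 0.53, and Tbh fell by 0.51, same-set by 0.35. L854F had 3 rises and no fall, where 4.38% of all genes rose: Pu, Hn (0.43) and Tdc1, a tyrosine decarboxylase (0.51). Same-set, where 5.63% rose, Hn (0.26, edgeR adjusted p = 0.156) and Tdc1 (0.43, 0.0528) did not pass, and Pu (0.35) and t (0.47) rose.

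In D234G 6 of the 22 rose and 1 fell, where 25.3% of all genes rose and 19.0% fell, so the rises are near the share of all genes. Same-set 5 rose and none fell there, where 20.3% rose, and the fall, Hn, was -0.26 (edgeR adjusted p = 0.128). In R873W 7 rose and 2 fell, where 21.9% rose and 21.8% fell, and same-set 8 and 3, where 18.9% rose and 18.8% fell. In Y874C 5 rose and none fell, where 9.27% rose, and same-set 4 and none, where 6.85% rose. Gdh, glutamate dehydrogenase, rose in all of these 3, by 0.64, 0.49 and 0.70, same-set by 0.52, 0.36 and 0.58, with 861 to 1156 CPM in their libraries, against 729 and 712 CPM in WT 1 and 2. Histamine is the transmitter of photoreceptors: Hdc, which makes it, rose by 0.53 in D234G, 0.35 in R873W and 0.45 in Y874C, same-set by 0.43, 0.25 and 0.35. The gene t, whose product frees histamine from a conjugate, rose by 0.57 in D234G, 1.22 in R873W and 0.83 in Y874C, and same-set by 1.06 in R873W and 0.67 in Y874C, while D234G did not pass (0.41, edgeR adjusted p = 0.0642). Gabat, which breaks down GABA, rose by 0.46 in R873W, same-set by 0.52. Of 7 photoreceptor markers tested, 1 rose and 2 fell in D234G, 2 rose and 1 fell in R873W, and none rose and 1 fell in Y874C. Same-set, 1 rose and 3 fell in D234G, 1 rose and 2 fell in R873W, and none rose and 1 fell in Y874C. The shares of all genes that rose are those given above. The part of photoreceptors in the Hdc and t values was not tested.

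**Figure D4:**
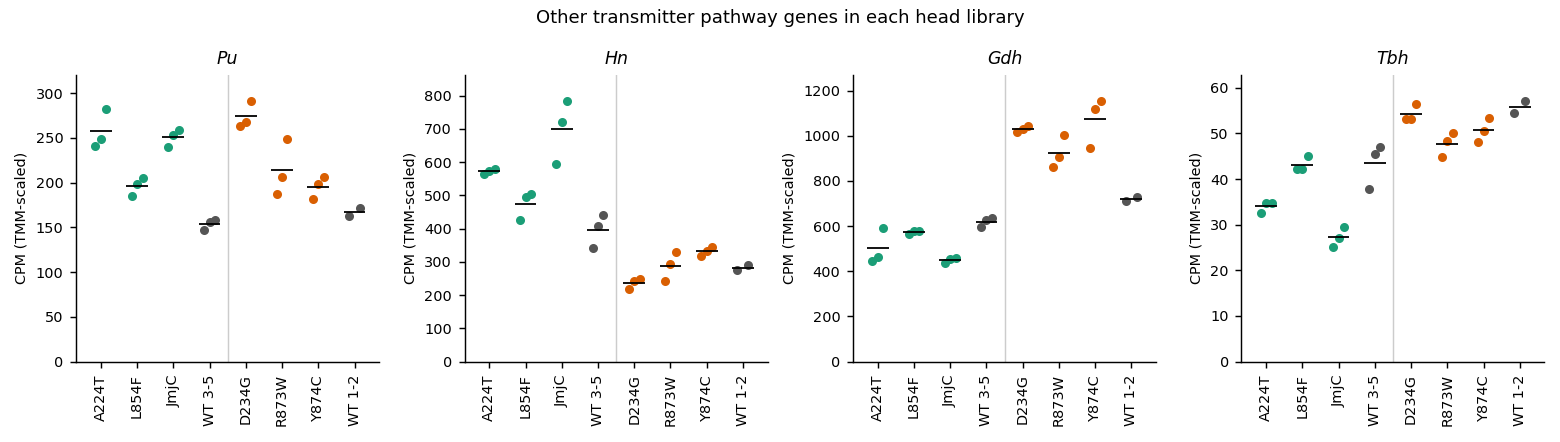
Level in CPM (y axis, from 0) of Pu, Hn, Gdh and Tbh in every head library, drawn as in the plot of the 10 genes. Pu is above WT in every strain, Gdh is high in D234G, R873W and Y874C, and Tbh is lowest in JmjC at 25.1 to 29.6 CPM.

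The knockdown was read from the authors' deposited table, which compares kdm5 knockdown with control neurons and holds no value per library, so no error or n of a gene is given. In the authors' deposited table Kdm5 fell by 0.97 in RNA (adjusted p = 2.06e-22) and by 2.02 in ribosome footprints (2.2e-45). Of the 10 genes, 4 rose and 1 fell in RNA in the authors' deposited table, where 20.7% of genes with a p were called, and 1 rose and 1 fell in footprints, where 25.1% were. The median RNA fold of the 10 in the authors' deposited table was 0.29, beside -0.03 over all genes, and their median footprint fold was 0.03, beside -0.06.

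Cholinergic genes rose in the knockdown RNA. ChAT rose by 0.43 (adjusted p = 0.0049) and VAChT by 0.39 (0.00428) in the authors' deposited table, and ChAT also rose in footprints, by 0.34 (0.0141). VAChT had a footprint fold of 0.13 (adjusted p = 0.326) there. VGAT rose by 0.40 in RNA (adjusted p = 0.00933) in the authors' deposited table, with a footprint fold of 0.04 (0.822). For Gad1 the authors' deposited table gives an RNA fold of 0.29 (adjusted p = 0.154) and a footprint fold of -0.06 (0.621). VGlut missed the threshold in that RNA, at 0.30 (adjusted p = 0.0516 in the authors' deposited table).

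ple had the largest RNA rise of the 10, 0.86 (adjusted p = 4.22e-05), beside a footprint fold of 0.19 (0.19) in the authors' deposited table. SerT fell in RNA by 0.42 (adjusted p = 0.0101), and its footprint fold was -0.40 (0.0644) in the authors' deposited table. Vmat was called in footprints and not in RNA: the authors' deposited table has an RNA fold of -0.02 (adjusted p = 0.913) and a footprint fall of 0.51 (4.91e-05). Ddc and DAT were not called in either, with folds between -0.13 and 0.10 in the authors' deposited table. Pu rose by 1.22 in RNA (adjusted p = 2.9e-09) and by 0.42 in footprints (3.28e-06) in the authors' deposited table. Of the 23 listed pathway genes 5 rose and 2 fell in RNA there, where 20.7% of genes with a p were called. In footprints 7 rose and 3 fell, where 25.1% were called.

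Footprint fold minus RNA fold, computed from the authors' deposited table with no test, was -0.66 for ple, -0.49 for Vmat, -0.36 for VGAT, -0.35 for Gad1 and -0.29 for VGlut, and 0.07 for Ddc. Whether IP or Input libraries gave the RNA is not stated, so the RNA and footprint folds may not cover the same cells. The authors' deposited table also has a column named te, in which 3 of the 10 were called (ChAT higher, Vmat and SerT lower) where 26.9% of genes were. That column lay within 0.03 of the footprint fold for all 10 genes and nearer to it than to footprint minus RNA for 92% of 6255 genes with means of 100 counts or more, so it is not read here as translation efficiency. The authors' deposited table labels ple, VGAT, VAChT and SerT as buffering, ChAT as mRNA abundance and Vmat as translation.

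**Figure D5:**
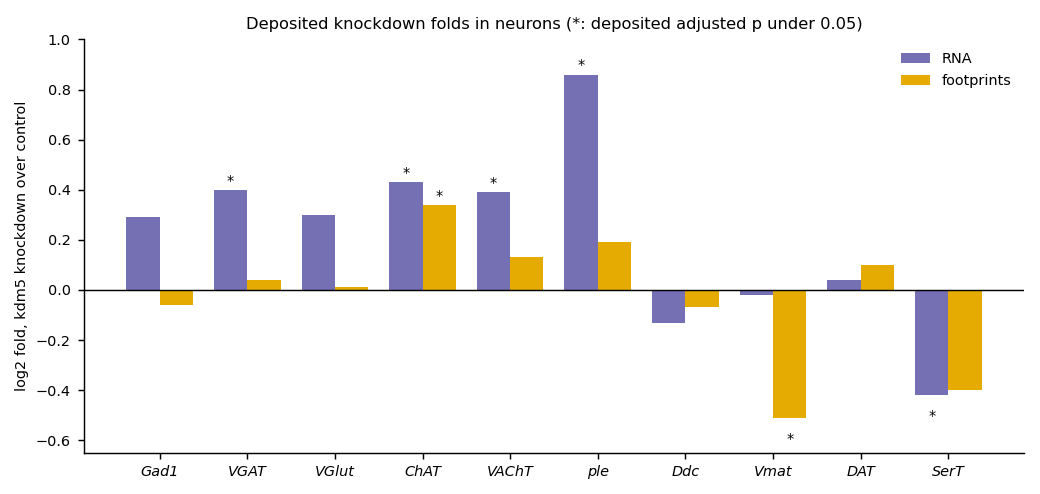
Log2 folds of kdm5 knockdown over control neurons (y axis) in RNA (purple) and ribosome footprints (yellow) for the 10 genes, from the authors' deposited table, with a star where the deposited adjusted p is under 0.05. ple stands highest in RNA at 0.86, and Vmat lowest in footprints at -0.51.

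The head strains and the knockdown differ in tissue, genotype and measure, and their values can only be set side by side. ple was higher in D234G, R873W and Y874C heads and in knockdown RNA. VGAT, ChAT and VAChT, which fell in JmjC heads by 0.52 to 0.56, had knockdown RNA folds of 0.39 to 0.43 in the authors' deposited table. Of these and ple, ChAT alone was called in knockdown footprints. SerT was lower in JmjC heads same-set (-0.36, all-WT -0.20 not called) and in knockdown RNA (-0.42). Vmat was lower in JmjC heads (-0.65) and in knockdown footprints (-0.51), though not in that RNA (-0.02). Gad1, VGlut, Ddc and DAT, also lower in JmjC, were not called in the knockdown.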

How the data were processed

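Per the labels, head RNA was made into stranded mRNA libraries. The authors' deposited head table holds whole-number counts per gene, not normalized, for 23 libraries. Tools named in the submitters' processing notes are STAR, featureCounts, fastp and DESeq2, with dm6 as build. Tool versions, strand option and the handling of overlapping genes: not given in the sources used here. Coordinates are those of RefSeq's Release 6 assembly, the assembly called dm6. Of the rows, 6052 without a gene ID (0.764 to 1.52% of counts) were left out. The tests ran in edgeR 4.0.16 (R 4.3.3, limma 3.58.1): TMM scaling, filterByExpr and the quasi-likelihood F-test in 1 model over all groups, with Benjamini-Hochberg adjustment over 12093 genes and calls under 0.05. In same-set comparisons WT was split at 5 CPM of roX2. DESeq2 1.42.0 was an alternative. The test was checked on simulated data. Figures were drawn in Python 3.11.15 with matplotlib 3.10.9, and tables made with pandas 2.3.3 and numpy 2.4.6.

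The knockdown was taken from the authors' deposited comparison table of 30704 transcripts, which per the file headers gives folds, adjusted p-values and mean counts. The deposited folds were read as log2, the scale of DESeq2. The transcript with the highest mean RNA count was kept for each of 13963 genes. Per-library Ribo-Seq counts of the 12 libraries were not analysed here, nor is it given which libraries the RNA column used.

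Named genes are the 10 members and, in each comparison, up to 3 called genes of the pathway list of smallest adjusted p (their values in other strains and Tdc1, Hdc and t same-set were added after values were seen), and the 3 genes of most like pattern (Pearson's r of log2(CPM + 0.5), mean of 5 CPM or more) for Gad1, VGlut, ChAT, Ddc and SerT. Members, lists and rules were chosen with earlier results of these data known. Sequences and transcript lengths were not used here, so levels are not compared between genes.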

Additional observations from a re-analysis of the deposited data

How the results depend on the processing

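Of 1040 recomputed values of single genes with 1 library left out, 966 kept their side of the threshold, 46 of them with a change of sign while called in neither, 58 lost and 16 gained a call. Of 1270 under other alternatives 1138 kept their side, 76 of them with such a change of sign, 89 lost and 37 gained a call, and 6 changed sign with a call on either side. All 6 came with neuron marker scaling: R873W Gad1 -0.14, VGlut -0.08, VAChT -0.27, Ddc -0.30 and DAT -0.35, and JmjC DAT 0.01. With that scaling the number of the 10 genes called was 3 in D234G (same-set 2), 0 in L854F, 5 in R873W, 4 in JmjC (same-set 4), 2 in Y874C same-set, 2 among A224T, L854F and JmjC, and 6 among D234G, R873W and Y874C. With library size alone 4 were called among D234G, R873W and Y874C. Without the filter 1 was called in L854F, 2 in D234G same-set and 1 between WT sets, and with other rows kept 2 in L854F same-set. With only the compared groups in the fit, 0 were called in L854F, 1 in R873W, 1 in Y874C, 1 in D234G same-set, 4 among D234G, R873W and Y874C, and 1 between WT sets. Against WT of the same set 1 was called in each of L854F, R873W and Y874C. Alternatives added after seeing the data gave D234G 3 called genes without its libraries with male transcripts, and 2 (same-set 1) without its shallow libraries. Leaving out 1 library gave 3 to 5 in D234G (same-set 2 to 4), 1 to 4 in L854F (same-set 1 to 2), 1 to 6 in R873W, 1 to 3 in Y874C (same-set 0 to 1), 7 to 8 in JmjC (same-set 8 to 9), 4 to 5 in A224T, 0 to 2 among D234G, R873W and Y874C and 0 to 2 between WT sets. Where WT 1 or WT 2 was left out, or a pair of D234G libraries, the lone library of its arm was assumed to vary like the other groups. The causes were not tested.

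Replicate numbers did not pair the samples: 7 of 63 same-numbered pairs had a correlation above 0.1 (range -0.61 to 0.31). With the replicate block 1 gene was called in L854F (same-set 0), 1 in Y874C, 2 in A224T same-set and 1 among D234G, R873W and Y874C. No paired analysis was possible between WT sets because they share no number.

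With only the compared groups in the fit, counts over all genes were 717 instead of 1786 in A224T, 315 instead of 942 in L854F, 3079 instead of 5284 in R873W, 724 instead of 2334 in Y874C, 1307 instead of 3752 in D234G same-set and 3842 instead of 2186 among A224T, L854F and JmjC. They were 1162 instead of 5350 in D234G without the male-transcript libraries, and 2084 instead of 3243 in JmjC without JmjC 2. Same-set they were 752 instead of 2135 in A224T, 524 instead of 1371 in L854F and 1356 instead of 3100 in JmjC with the replicate block, and without WT 2 they were 2374 instead of 4560 in R873W, 604 instead of 1545 in Y874C and 2006 instead of 3333 between WT sets. The share of called genes that rose was 48.7% in A224T and 45% in JmjC by TMM (same-set 47.9% and 44.5%), 71.7% and 74% by library size (74.6% and 78.5%), and 90% and 93.2% by neuron marker scaling (78.8% and 90.8%). By neuron marker scaling it was 39.8% in D234G (57.2% by TMM), 80.6% in L854F (56.3%), 17.3% in R873W (50.1%), 74.7% in Y874C same-set (53.6%) and 84.4% between WT sets (52.1%). DAT, at 80 counts in its shallowest library, had the fewest counts of the 10 genes.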
